A study of Saccharomyces cerevisiae W303 with 16 samples.

Results

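The transcripts described here are those of yeast genes whose 3'-UTR extension held no in-frame ribosome footprint when the termination factor eRF1 was inactivated. Their coding region (CDS) was nevertheless translated. The extension is the stretch from the canonical stop codon to the next stop codon in the same frame, and footprints in it are the study's measure of readthrough. All footprint counts given here are of the reading frame of the CDS, so footprints in other frames are not counted. Members were chosen from the counts of sup45-ts cells at 37°C as transcripts with 0 extension footprints, at least 50 CDS footprints and an annotated 3'-UTR, that is, one that does not have the default length of 176 nt. Of 6575 transcripts in the table, 2833 had an annotated 3'-UTR, 2726 of these had at least 50 CDS footprints, and 178 had no extension footprint. The other 2548 had at least 1 and serve as the comparison. The choice rests on the extension and CDS counts, so these values and what follows from them directly are given as a description, with no test.

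At a stop codon the release factor eRF1, encoded by SUP45, recognises the codon in the ribosomal A site and frees the finished protein. When eRF1 is scarce or inactive, a near-cognate tRNA can be accommodated in its place, and the ribosome continues in frame until it meets another stop codon or the end of the mRNA. Ribosomes can also reach the 3'-UTR in other ways, for instance after failed recycling, or by frameshifting or reinitiation near the stop codon. Where these leave the ribosome in frame, their footprints in the extension cannot be told apart from readthrough.

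The study profiled ribosome footprints and total mRNA in wild-type SUP45 cells (strain HFY114) and in sup45-ts cells (HFY1218), which carry the temperature-sensitive sup45-2 allele. Both strains are W303 of mating type a, share mutant alleles of ADE2, HIS3 (his3-11,15), LEU2, TRP1, URA3 and CAN1, and were grown in YPD at 25°C, then shifted to 37°C for 30 minutes or given a mock shift at 25°C. Each of the 4 conditions had 2 libraries of each kind, 16 in all, and nothing in the labels says whether the 2 came from separate cultures. The deposited readthrough counts hold 1 value per transcript and condition with replicates combined, so footprint values have no replicate error. The sup45-2 allele alters the protein, so the SUP45 mRNA level does not check the labels. The tables held 6463100 CDS and 3'-UTR footprints for sup45-ts cells at 37°C against 16629631 to 21557248 in the other conditions, and the RNA-Seq libraries held 107324548 to 153654244 estimated reads.

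The transcripts without extension footprints stood out first by the length of the extension. Their median extension was 9 nt (95% interval of the median over transcripts 9 to 12), with quartiles of 6 and 21 nt and a range of 3 to 187 nt. The other transcripts had a median of 33 nt, or 36 nt when weighted to the same distribution of CDS footprints, in bands that each span a factor of 2. An extension of 3 nt means that the codon after the canonical stop codon is itself a stop codon, so that only the canonical stop codon is counted. This was so for 41 members (23.0%) and 134 others (5.26%, or 4.78% in the same bands). Extensions of 9 nt or less were found in 96 members (53.9%) against 19.3% of the others. Those of at least 60 nt made up 7.87% of members and 28.0% of the others.

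Counted from the extension side, 23.4% of the 175 transcripts with a 3-nt extension lacked footprints there (95% exact binomial interval 17.4 to 30.4%). The share was 17.0% at 4 to 6 nt, 10% (22 of 220) at 7 to 9 nt, 7.75% at 10 to 15 nt, 4.83% at 16 to 30 nt and 3.23% at 31 to 60 nt. It was 1.93% at 61 to 120 nt and 2.75% (3 of 109) beyond that, and these last intervals overlap. By CDS footprints, the share was 16.6% at 50 to 99 and 14.1% at 100 to 199, and 3.25% at 400 to 799 and 4.15% at 800 to 1599. None of the 372 transcripts with 1600 or more CDS footprints was without extension footprints, which allows a share of up to 0.987%. All intervals given here cover counting error only.

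**Figure D1:**
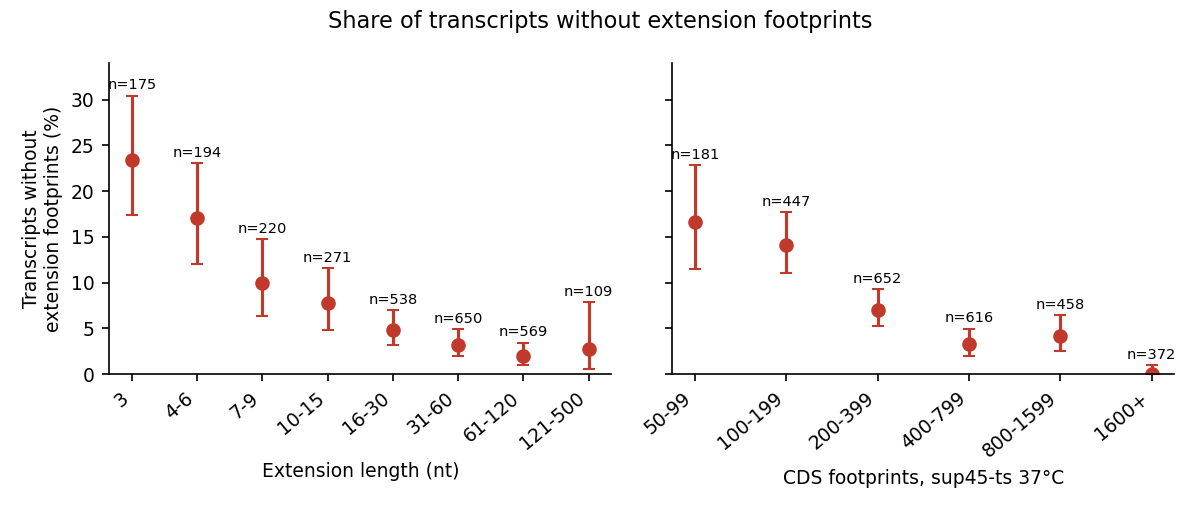
Share of transcripts without extension footprints in sup45-ts cells at 37°C (y axis, percent), by extension length in nt (left) and by number of CDS footprints (right). Points are shares with exact 95% binomial intervals and n is the number of transcripts in each class. The share was 23.4% at 3 nt and 1.93% at 61 to 120 nt, and 0 of 372 in the highest class of CDS footprints.

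Members had few CDS footprints, with a median of 188 (quartiles 116 and 353, range 51 to 1482) against 461.5 in the others. At the edge of the rule, PEX2, a peroxisomal ubiquitin ligase, was a member with 51 CDS footprints and PRY1, a secreted sterol-binding protein, with 56. UBP16, a deubiquitinase, had no extension footprint but 49 CDS footprints and so fell outside, as did YIL102C-A with 48. Among transcripts with a single extension footprint, SIS1, an Hsp40 co-chaperone, had 17720 CDS footprints and an extension of 3 nt, and ILS1, the isoleucyl-tRNA synthetase, had 4408 and 15 nt. Both lay 1 footprint outside the rule with far more coding reads than any member. In all, 133 transcripts had 1 extension footprint and 124 had 2. Transcripts given the default 3'-UTR length are not members by the rule, and 286 of 2432 of them (11.8%) had no extension footprint.

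How much a count of 0 says depends on how many footprints could have been seen. Across the 2726 transcripts, the pooled footprint density of extensions was 1.84 times that of the CDS. It includes ribosomes stalled at the first downstream stop codon, which the study says could somewhat inflate apparent readthrough. The same pooled ratio was used for all extension lengths. At this ratio, the extensions of members would have held a median of 4.03 footprints each, against 28.6 in the others and 16.4 in others of the same bands. Of the members, 68 would have held fewer than 3, 110 at least 3, 45 at least 10 and 9 at least 30. The share without footprints was 43.9% of the 41 transcripts with less than 1 footprint expected, 24.5% from 1 to 3, 12.9% from 3 to 10 and 4.96% from 10 to 30. It was 1.20% (9 of 750) from 30 to 100 and 0 of 502 beyond that. For the 68 members under 3, readthrough below the pooled ratio was not detectable at this depth.

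The upper limit on readthrough efficiency makes the same point for each transcript. Readthrough efficiency is the log2 ratio of extension density to CDS density, and the limit is its value had 3 footprints been seen. For a count of 0, 3 is about the 1-sided 95% Poisson bound on the mean. The median limit of members was 0.45 against a median measured efficiency of 0.49 in the others. For 92 members (51.7%) the limit was below that median, for 47 it was below the others' lower quartile of -0.81, and for 14 it was within their lowest 10%, under -2.06. Measured efficiencies of the others were higher where extensions were short, with a median of 2.43 at 3 nt, 1.42 at 4 to 9 nt, 0.73 at 10 to 30 nt, 0.45 at 31 to 60 nt and -0.36 at longer extensions. The others have at least 1 extension footprint by the rule, and over a short extension a single footprint already gives a high ratio, so this order and the comparison that follows depend in part on how the groups were chosen. Set against others of like length, the limit was below the median for 26 of 41 members with 3 nt, 33 of 55 with 4 to 9 nt, 38 of 47 with 10 to 30 nt, 20 of 21 with 31 to 60 nt and all 14 with more.

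**Figure D2:**
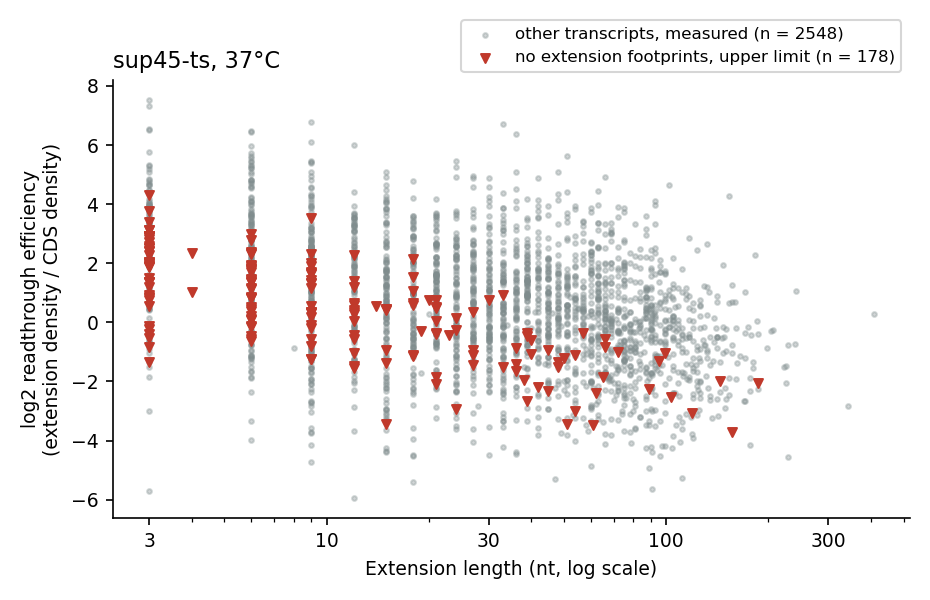
log2 readthrough efficiency (y axis, extension density over CDS density) against extension length in nt (x axis, log scale) in sup45-ts cells at 37°C. Grey points are the measured values of 2548 other transcripts and red triangles are the upper limits of the 178 transcripts without extension footprints, which run from 4.31 down to -3.71. Limits at long extensions lie in the lower part of the cloud, while those at 3 nt lie within it.

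The lowest limits belonged to transcripts of varied function, of which 9 of the first 10 are given here. VAC17, the vacuolar receptor for a myosin motor (chromosome III, 17290 to 18561, R64), had 308 CDS footprints and an extension of 156 nt with none, where 72.3 would be given by the pooled ratio. Its limit was -3.71, the lowest of all members. UFE1, a t-SNARE of the endoplasmic reticulum (chromosome XV, 468212 to 469252), had 538 CDS footprints, an extension of 61 nt and a limit of -3.47. ARC40, a subunit of the Arp2/3 actin-nucleating complex (chromosome II, 685438 to 686592), had 713, 51 nt and -3.46 in the same order. In these 3 transcripts no further in-frame stop codon lies within the annotated 3'-UTR, so that the whole 3'-UTR counts as extension. Their 3'-UTRs held no in-frame footprint.

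PTC1, a type 2C protein phosphatase, had 170 CDS footprints over an extension of 119 nt that was its whole 3'-UTR, and a limit of -3.08. BRO1, which acts in sorting of membrane proteins to the vacuole (chromosome XVI, 394038 to 396572), had 1112 CDS footprints and an extension of 54 nt. Its 3'-UTR of 153 nt held no in-frame footprint. Its limit was -3.01. WBP1, a subunit of oligosaccharyltransferase, had 1193 CDS footprints, 24 nt and a limit of -2.94, with 17 footprints past the extension. The mitochondrial ribosomal protein gene MRP2, with 39 nt, the mannosyltransferase gene ALG11, with 103 nt, and the mitochondrial ATPase gene AFG1, with 62 nt, had limits of -2.67, -2.54 and -2.38.

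The members with the most CDS footprints mostly had short extensions. RNR1, the large subunit of ribonucleotide reductase, had the highest count, 1482, and an extension of 3 nt, so that only 3.12 extension footprints would be given by the pooled ratio. TVS1 followed with 1452 CDS footprints and 9 nt, ATP3, the gamma subunit of the mitochondrial ATP synthase, with 1278 and 3 nt, and the septin gene CDC12 with 1276 and 3 nt. PFF1, a protease of the vacuolar membrane, had 1229 and 6 nt. TCP1, a subunit of the cytosolic chaperonin CCT, had 1184 and 12 nt, and SRP72, of the signal recognition particle, had 1093 and 9 nt. WBP1 and BRO1, also among the first 10, are given above. After PRY1 (187 nt) and VAC17 (156 nt), the longest extensions were those of HER1 (144 nt), PTC1 (119 nt) and ALG11 (103 nt).

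Position relative to the 3' end formed a second feature. In 25 members (14%) the whole annotated 3'-UTR was extension, against 198 others (7.77%, or 8.76% in the same bands). Where at least 10 extension footprints would be given by the pooled ratio, 16 of 206 such transcripts (7.77%, exact interval 4.50 to 12.3%) had none, against 29 of 1772 (1.64%, 1.10 to 2.34%) whose downstream stop codon lay inside the annotated 3'-UTR. Of the 9 members with at least 30 expected, 5 had a 3'-UTR that was wholly extension. Such transcripts have no downstream stop codon in the annotated 3'-UTR at which ribosomes could stall, while the pooled ratio includes stalled ribosomes. Their expected counts may thus be too high, so the shares of both kinds are not fully alike. Over all lengths, annotated 3'-UTRs of members were somewhat shorter, with a median of 110 nt (95 to 121) against 126 nt in others of the same bands. With 3-nt extensions they were longer, at 129 against 117 nt. They were shorter at 4 to 9 nt (110 against 125), 10 to 30 nt (107 against 116) and beyond 30 nt (85 against 132). Of the 43 transcripts with 3'-UTRs of 40 nt or less, 15 (34.9%) were members, and of the 20 among them with at least 10 expected footprints 4 were (20%, 5.73 to 43.7%). Reads were aligned to transcripts that end with the annotated 3'-UTR, and a footprint reaches downstream of the position it is assigned to. Positions next to the annotated 3' end can therefore hold few footprints or none, as in MNT3 with a 3'-UTR of 4 nt. The part of this limit in the shares was not tested.

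The rest of the 3'-UTR, beyond the extension, was not used by the rule, although its counts come from the same libraries. The deposited 3'-UTR counts cover the reading frame of the CDS alone, since they equal the extension counts in all 388 transcripts whose whole 3'-UTR is extension. A rest of the 3'-UTR existed in 153 members, and 122 of these had footprints in it while 31 (20.3%, exact interval 14.2 to 27.5%) had none. Among others of the same bands 17.3% had none. The median number of footprints there was 7 in members and 8 in others of the same bands, so the 2 groups lay close together over all lengths.

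Within classes of extension length, the share without footprints in the rest of the 3'-UTR was higher in members than in others of the same bands in each of the 4 classes, though not always beyond counting error. Bands match the number of CDS footprints, not their density. Over all lengths, members had a median of 188 CDS footprints per kilobase against 257 in others of the same bands. How far this lower density accounts for the shares was not tested. With 3 nt, 6 of 41 members (14.6%, exact interval 5.57 to 29.2%) had none against 5.18% of others, and the medians were 11 and 19 footprints. Beyond 30 nt, 11 of 17 (64.7%, 38.3 to 85.8%) had none against 28.1%, but there the rest of the 3'-UTR was also shorter in members, with medians of 56 and 77 nt. With 4 to 9 nt, 5 of 53 (9.43%, 3.13 to 20.7%) had none against 4.11%, and with 10 to 30 nt, 9 of 42 (21.4%, 10.3 to 36.8%) against 12.7%, both within the intervals of the members. No in-frame footprint anywhere in the 3'-UTR was found for 56 members (31.5%). In 25 of them the whole 3'-UTR was extension, so their 0 follows from the rule. The other 31 are those without footprints in the rest of the 3'-UTR. The comparison transcripts have at least 1 by the rule.

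**Figure D3:**
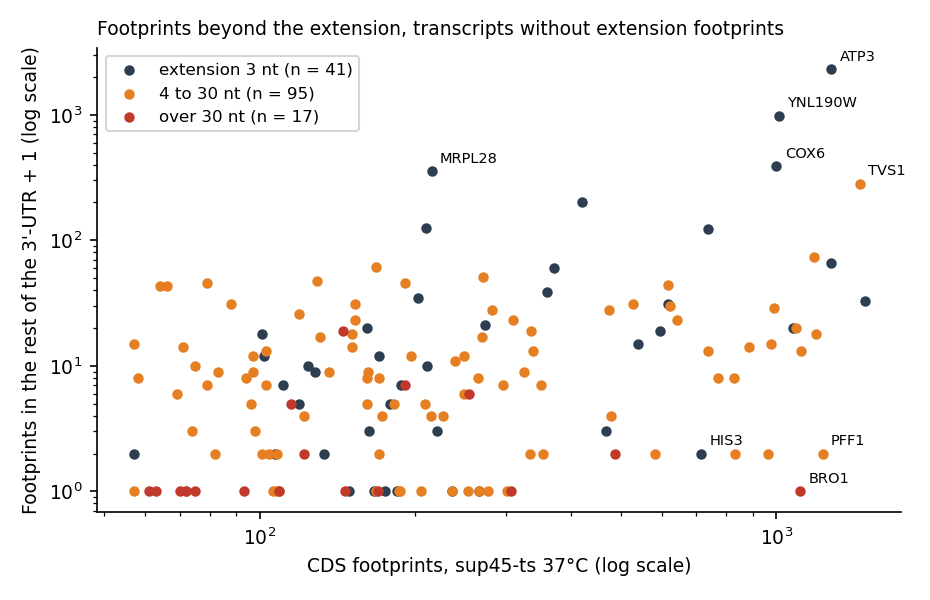
Footprints in the rest of the 3'-UTR plus 1 (y axis, log scale) against CDS footprints (x axis, log scale) for the 153 members with 3'-UTR beyond the extension, sup45-ts cells at 37°C. Each point is a transcript, coloured by extension length. ATP3 is highest with 2320 footprints, while BRO1 has none and HIS3 and PFF1 have 1 each beside 714 and 1229 CDS footprints. HIS3 carries mutant alleles in both strains.

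A few transcripts carried most of these footprints. ATP3 (chromosome II, 315575 to 316510) had 2320 in the 178 nt beyond its 3-nt extension, a density above that of its CDS by 3.17 on the log2 scale and 36.1% of the 6429 footprints of all members. YNL190W had 980, with a density equal to that of its CDS within 0.02 on the log2 scale. COX6, a subunit of cytochrome c oxidase, had 387, but its transcript overlaps a same-strand transcript by 288 bp, so these cannot be assigned to COX6 alone. MRPL28, of the mitochondrial ribosome, had 356 at a density 2.35 above its CDS on the log2 scale, and TVS1 had 282. These 5 made up 67.3% of the total. The extension of 4 of the 5 was 3 nt and that of TVS1 was 9 nt. At the other end, PFF1 had 1 footprint in its remaining 94 nt beside 1229 in its CDS. HIS3, which encodes imidazoleglycerol-phosphate dehydratase and carries the his3-11,15 alleles in both strains, had 1 beside 714. Reads were aligned to the reference sequence, so the HIS3 counts may not describe termination at its canonical stop codon. How the mutant alleles bear on these counts was not tested. Pooled over members, density in the rest of the 3'-UTR was 85% of CDS density against 55.1% in the others. ATP3 and YNL190W held 51.3% of the member footprints, and without these 2, left out after the values were seen, the figure was 49.4%. Per transcript with footprints, the median log2 ratio of this density to CDS density was -1.22 in members and -1.39 in others of the same bands.

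The other 3 conditions were not used by the rule and give the same measure in other libraries. Across them, 29 members (16.3%, exact interval 11.2 to 22.6%) had at least 1 extension footprint against 65.3% of the others and 58.3% of others in the same bands. The remaining 149 members had none in any of the 4 conditions. In the sup45-ts strain at 25°C, 19 members (10.7%) had an extension footprint against 48.5% of others in the same bands. For wild-type cells the shares were 3.93% and 27.3% at 25°C, and 4.49% and 18.3% at 37°C.

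Summed over members, extensions held 26 footprints in sup45-ts cells at 25°C (95% Poisson interval 17.0 to 38.1). Given each member's own CDS footprints in that condition, 108 would be given by the pooled ratio of all 2726 transcripts in the same bands, and 156 by that of the same bands and extension lengths. Wild-type libraries at 25°C held 10 member footprints (4.80 to 18.4) against 27.9 and 38.7, and those at 37°C held 9 (4.12 to 17.1) against 15 and 21.2. Thus the upper bound was below both figures in both strains at 25°C. For wild-type cells at 37°C it was below the figure by length but above that by bands alone. These intervals cover counting error only, not the spread of readthrough between transcripts or between replicates. The CDS footprints behind these sums were 339390, 270283 and 203429, more than the 57121 of sup45-ts cells at 37°C. The largest share of the CDS footprints at 25°C was that of RPL18B, with 32395 of the 339390 in sup45-ts cells, followed by DBP2 (18316), NSR1 (17985) and RNR1 (16772). Without RPL18B, left out after the values were seen, the other members held 24 footprints in the sup45-ts strain at 25°C (15.4 to 35.7) against 94.2 by bands and 136 by bands and lengths.

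By length, the difference in sup45-ts cells at 25°C was present in each class. With 3 nt, 4 of 41 members (9.76%) had an extension footprint against 23.0% of others in the same bands. With 4 to 9 nt it was 4 of 55 (7.27%) against 42.8%, with 10 to 30 nt 9 of 47 (19.1%) against 44.1%, and beyond 30 nt 2 of 35 (5.71%) against 52.3%. DBP2, a DEAD-box RNA helicase, was the only member to reach 3 extension footprints in any condition, with 3 in each strain at 25°C and 0 in each at 37°C. Its CDS held 254 footprints in sup45-ts cells at 37°C. VAC17, UFE1, ARC40, PTC1, BRO1, WBP1, MRP2, ALG11 and AFG1 had 0 in all 4 conditions, with 462 to 6112 CDS footprints in sup45-ts cells at 25°C. RPL18B, the other of the 10 transcripts with the lowest limits, had 2 extension footprints in each strain at 25°C and 1 in wild-type cells at 37°C.

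**Figure D4:**
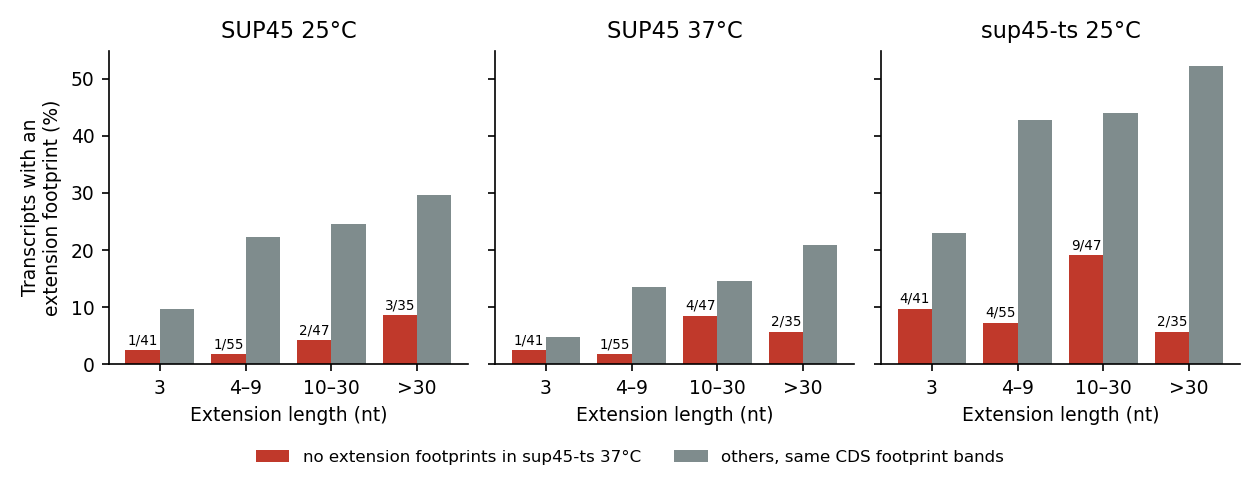
Share of transcripts with at least 1 extension footprint (y axis, percent) in the 3 conditions the rule did not use, by extension length in nt (x axis). Red bars are the 178 transcripts without extension footprints in sup45-ts cells at 37°C, with counts above, and grey bars are other transcripts weighted to the same bands of CDS footprints. The red bar is the lower in every class, for example 2 of 35 against 52.3% beyond 30 nt in sup45-ts cells at 25°C.

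By function, 20 members belonged to 1 of 21 lists of yeast gene groups. Amino acid synthesis had 4 members of 52 transcripts that could be members, the first step of aromatic synthesis (ARO4), chorismate mutase (ARO7), homoaconitase (LYS4) and HIS3. RNA polymerase subunits had 3 of 20 (15%), RPC34, RPC25 and RPC37, all of RNA polymerase III. The share was 6.53% (178 of 2726) over all transcripts and 14.1% at 100 to 199 CDS footprints, where the list's median of 190.5 lay. Mitochondrial ribosomal proteins had 3 of 62 (MRPL28, MRP17 and MRP2) and nutrient transporters 3 of 36, the amino acid permease GAP1, the lactate transporter JEN1 and ATO3. Oxidative phosphorylation had 2 of 35 (ATP3 and COX6) and the spliceosome 2 of 28 (CEF1 and SMD3). Cytosolic ribosomal proteins, many of them encoded by gene pairs between which reads can be shared, had only RPL18B among 132. The translocon gene SBH2 and the peroxidase gene GPX2 were the only members of the secretory and stress lists. One of the remaining lists, of subtelomeric families, had no transcript that could be a member. The other 11 had none among the 8 or more that could be, and included glycolysis, chaperones, aminoacyl-tRNA synthetases, the proteasome and translation factors. The median CDS count was 15794 in glycolysis and 29785 among chaperones but 190.5 in RNA polymerase subunits, and no transcript with 1600 or more was a member.

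The mRNAs of members were less abundant than those of others. Levels are given as FPKM, fragments scaled to transcript length and library size, as means over 2 libraries. In sup45-ts cells at 37°C the member median was 40.9 (35.1 to 45.5) against 79.8 in all others and 52.6 in others of the same bands. In the other conditions the medians were 48.6 against 63.3 in the same bands (SUP45, 37°C), 37.8 against 47.3 (sup45-ts, 25°C) and 41.6 against 50.1 (SUP45, 25°C). The CDS of members was longer than that of others with as many footprints, with medians of 1165.5 and 909 nt, and their median footprint densities per kilobase were 188 and 257. Footprints per kilobase and FPKM were close, at 5.35 (4.66 to 5.74) in members and 5.23 in others of the same bands. Levels are relative within a library, so fewer mRNA molecules in every cell and fewer cells that hold them cannot be told apart.

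Of the 178 members, all tested, 143 (80.3%) passed edgeR's quasi-likelihood test of the mutant against the wild type at 37°C at an adjusted p of 0.05, beside 78.9% of all 6767 transcripts tested. With 40 higher and 103 lower, members were called higher in 22.5% and lower in 57.9%, beside 39.5% and 39.4% of all transcripts. Others of the same bands were called higher in 25.2% and lower in 57.7%, close to the members. The median log2 fold change was -0.36 in members, -0.33 in others of the same bands and -0.01 over all transcripts. In all 143 called members the 2 libraries of each strain did not overlap in FPKM, which is not separate evidence, since the calls use the same libraries. The p-values measure the spread between 2 libraries a group, which may be technical.

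JEN1 had the largest rise, from 2.88 and 3.11 FPKM in the SUP45 libraries at 37°C to 33.8 and 33 in sup45-ts cells. The log2 fold change was 3.49 (SE 0.08, edgeR adjusted p 3.11e-09). At 25°C it was at 1.57 and 1.49 in SUP45 and 1.52 and 1.55 in sup45-ts cells, so that only the sup45-ts libraries at 37°C were high. MTH1, a regulator of glucose transporter genes, was at 5.91 and 5.42 FPKM in the SUP45 libraries at 37°C against 33.2 and 34.6 in the mutant (log2 fold change 2.59, SE 0.22). At 25°C its libraries read 5.94 and 4.80 in SUP45 and 10 and 6.05 in sup45-ts cells. HIS3 was at 20.0 and 26.2 FPKM against 107 and 138 (2.42, SE 0.15), and between 13.7 and 15 in the 4 libraries at 25°C. Its CDS footprints were 40 in sup45-ts cells at 25°C and 714 at 37°C.

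GAP1 had the largest fall, from 316 and 295 FPKM in SUP45 cells at 37°C to 45.1 and 46.2 in sup45-ts cells (log2 fold change -2.74, SE 0.15, edgeR adjusted p 1.89e-07). Its 4 libraries at 25°C were between 286 and 430. GWT1, an acyltransferase of GPI anchor synthesis, was at 111 and 114 FPKM against 25.6 and 26.2 (-2.10, SE 0.06). In the libraries at 25°C it was between 31.8 and 35.2, so the SUP45 libraries at 37°C stood above all others. NSR1, a nucleolar protein of ribosomal RNA processing, was at 89.8 and 94.5 against 23.5 and 24.7 (-1.93, SE 0.08), and was between 519 and 559 at 25°C. It was lower at 37°C in both strains. Of these 6 genes, GAP1, GWT1, NSR1 and HIS3 had extensions of 3 nt, MTH1 of 9 nt and JEN1 of 21 nt.

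**Figure D5:**
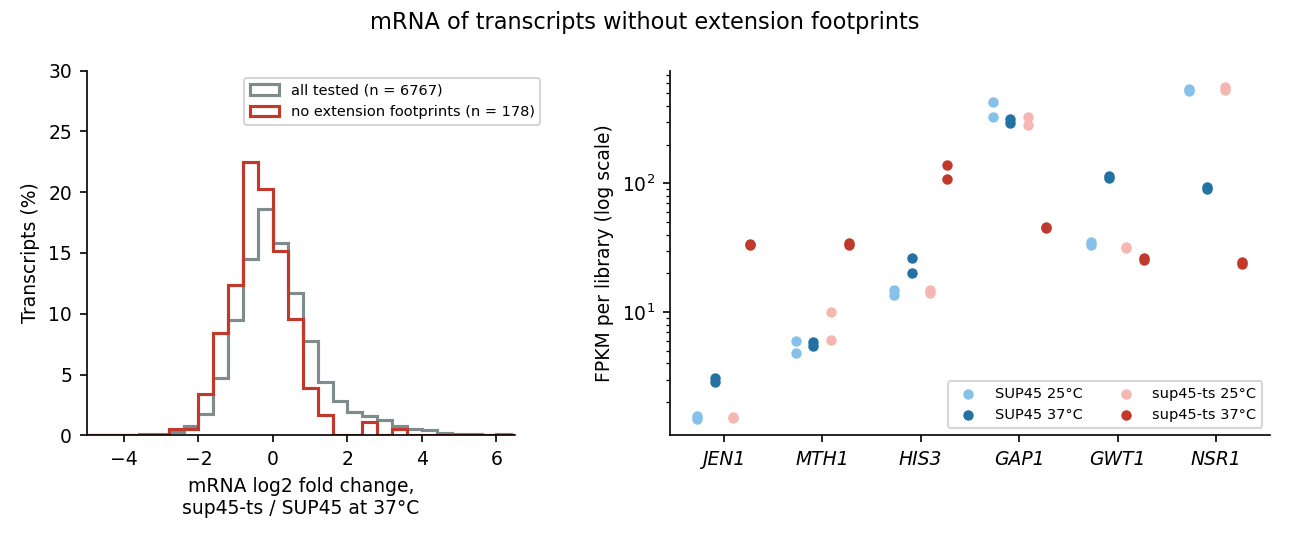
Left, distribution of mRNA log2 fold changes of sup45-ts against SUP45 cells at 37°C (x axis) as percent of transcripts (y axis) for all 6767 tested and for the 178 members. Right, FPKM in each library (y axis, log scale) of the 3 called members with the largest rise and the 3 with the largest fall, coloured by condition. Member fold changes are shifted to the left, with medians of -0.36 and -0.01, and JEN1 is near 33 FPKM in the sup45-ts libraries at 37°C alone.

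Members of the gene lists moved in both directions, with 6 higher, 13 lower and 1 not called. The 13 lower calls among 20 stand beside 39.4% lower calls over all transcripts and 57.7% among others of the same bands, so their share is near that of transcripts with as many footprints. RPC34, RPC25 and RPC37 had log2 fold changes of -0.67, -1.14 and -1.28, all called lower. All 3 mitochondrial ribosomal protein genes were called lower, by MRP2 at -1.40, MRPL28 at -0.47 and MRP17 at -0.21. Amino acid synthesis was split, with ARO4 (-0.64) and ARO7 (-0.29) lower and LYS4 (0.69) and HIS3 higher. COX6 was not called (-0.16, edgeR adjusted p 0.0676).

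Between the strains at 25°C, edgeR called 0 members, beside 0.133% (9) of all transcripts, while DESeq2 called 5 members, beside 124 of 6952 transcripts. The test of whether the strain difference itself changed with temperature called 135 members (75.8%), beside 70.1% of all transcripts. Between 37°C and 25°C in sup45-ts cells, 161 members (90.4%) were called, 50 higher and 111 lower, beside 86.5% of all transcripts (44.6% higher) and 87.6% of others in the same bands. This comparison shares the sup45-ts libraries at 37°C with the one between strains. Lower calls made up 62.4% of members, 58.2% of others in the same bands and 42.0% of all transcripts.

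A same-strand neighbour overlapped by more than 18 bp in 16 members (8.99%, exact interval 5.23 to 14.2%), in 4.79% of the others and in 5.29% of others of the same bands, a share within the interval of the members. The gap to the next gene on the strand was alike, with medians of 1324 bp in members and 1388 bp in others of the same bands.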

How the data were processed

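The authors trimmed footprints with cutadapt, aligned them with Bowtie to a yeast transcriptome (R64) and placed P-sites with riboWaltz. The deposited readthrough tables give footprint counts per transcript and readthrough efficiency as log2 per condition, with replicates combined and the first 15 and last 33 nt of the CDS left out. Deposited RSEM files of 8 RNA-Seq libraries give expected counts and FPKM. RSEM files of the 8 footprint libraries were not used.

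From these, shares with exact binomial (95%) or Poisson intervals, medians with order-statistic intervals, and upper limits from 3 footprints were computed in Python 3.11.15 with scipy 1.17.1. Expected counts were rounded and fitted in edgeR 4.0.16 (TMM, filterByExpr, all 8 libraries, quasi-likelihood, Benjamini-Hochberg), after being tested on simulated data. DESeq2 1.42.0, RLE scaling, other filters, subsets and blocks were alternatives. Members and gene lists were chosen with earlier results of these data known. Named genes are those with the most CDS footprints, lowest limits, longest extensions, most footprints in the rest of the 3'-UTR, at least 3 extension footprints elsewhere, the largest mRNA changes, list members and those nearest the thresholds. R64 coordinates were matched by locus tag for all 178. Stop codon context was planned but not analysed here, and the upper limit of 1 named member is not reported here.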

Additional observations from a re-analysis of the deposited data

Results flagged for a closer look

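For the 6 members named for their mRNA change at 37°C, the difference between strains was not the same at the 2 temperatures by edgeR's interaction term. They were chosen for their size at 37°C, and the interaction uses the same libraries. The strain difference at 37°C less that at 25°C was 3.39 on the log2 scale for JEN1 (adjusted p 7.09e-08), 2.32 for HIS3 (1.06e-05) and 1.91 for MTH1 (0.000396). It was -2.52 for GAP1 (4.83e-06), -2.09 for GWT1 (1.60e-07) and -2.07 for NSR1 (4.06e-07).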

How the results depend on the processing

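With a CDS minimum of 200, 85 members remained, 13.9% had no footprint in the rest of the 3'-UTR (11.9% of others) and their median was 55.8 FPKM (74.0 in others). With extensions of at least 15 nt there were 67 members with a median extension of 33 nt, 35.6% without footprints in the rest of the 3'-UTR (23.2% of others) and 23.9% with an extension footprint in another condition (61% of others). With at least 3 expected extension footprints there were 110 members, with medians of 18 nt and 48.5 FPKM. A CDS minimum of 100 and leaving out same-strand overlaps moved no member value past its interval. At 25°C, DESeq2 called 5 members between strains, and leaving out replicates in turn gave 0 to 4, with 4 without SUP45 25°C replicate 1 and 1 without sup45-ts 25°C replicate 1. Over all transcripts the 9 calls at 25°C became 124 with DESeq2, 12 with RLE, 18 with the block, 0 within the 4 libraries compared and 0 to 150 without single replicates. Leaving out replicates gave 137 to 146 members called between strains at 37°C and 151 to 162 for 37°C against 25°C. With the replicate block 146, 0 and 161 members were called in the 3 comparisons. Same-numbered libraries did not deviate together (correlations of -0.17 to 0.22), so the numbers were not read as pairs. The 6 named genes kept direction and call under every alternative run. Footprint values have no replicates, and depth limits what 68 members with fewer than 3 expected footprints can show.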
